A study of Sus scrofa with 15 samples.

Results

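Dysbindin, the product of *DTNBP1*, and the other genes of BLOC-1 (biogenesis of lysosome-related organelles complex 1) and of its sister complex BORC were followed in pig oocytes through in vitro maturation. The members were chosen by symbol. They were *DTNBP1*, *BLOC1S1*, *BLOC1S2*, *BLOC1S3*, *BLOC1S4*, *BLOC1S5*, *BLOC1S6*, *SNAPIN*, *KXD1* and *BORCS5*, 10 genes in all, of which 9 had a row among the 22516 genes of the gene table. *BLOC1S3* was not analysed here. RNAseq had been done on poly(A) RNA of 15 libraries, each made from 15 oocytes of sows whose ovaries came from an abattoir. GV (germinal vesicle) oocytes were taken from fresh follicles without culture (5 libraries). MII oocytes showed the first polar body after 44 h of maturation within their cumulus cells, and ‘damaged’ oocytes showed none after the same culture (5 libraries each). All oocytes were stripped of cumulus cells with hyaluronidase. The age and breed of the sows were not given in the sources used here, and GV oocytes differed from the other groups in culture as well as in stage. The oocytes came from 5 independent collections, each of which gave oocytes of every group, and the sources used here do not say which library came from which collection. MII and ‘damaged’ libraries joined are called MIX (n = 10).

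BLOC-1 is a cytosolic complex that sorts membrane proteins from early endosomes to lysosome-related organelles such as melanosomes, and it works with the adaptor AP-3. BORC sits on lysosomes, where it couples them to kinesins that carry lysosomes outwards. *BLOC1S1*, *BLOC1S2* and *SNAPIN* are subunits of both complexes, *DTNBP1*, *BLOC1S3*, *BLOC1S4*, *BLOC1S5* and *BLOC1S6* belong to BLOC-1 alone, and *KXD1* and *BORCS5* belong to BORC alone. Loss of BLOC-1 subunits is known from Hermansky-Pudlak syndrome and from pale coat colours in mice, and *BLOC1S1* is also known by its older name GCN5L1 for a role in acetylation in mitochondria.

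The libraries held 6.40 to 23.6 M estimated counts. GV replicate 3 had the fewest, and it is left out of every test and GV mean unless it is named. The study also removed 1 GV library for its low number of reads. All 9 oocyte markers with a row were above 0 in every library, with summed levels of 15264 to 19160 TPM (transcript abundance corrected for length and scaled to the same total in every library) in GV, 3591 to 5990 in MII and 4196 to 5200 in ‘damaged’. Of 11 cumulus and granulosa cell markers with a row, 0 had a median over 1 TPM in any group. Their summed levels were 3.72 to 7.67 TPM in GV, 0.573 to 4.15 in MII and 0.659 to 1.58 in ‘damaged’, *AMH* was at 0 in every MII library, and the part of these cells in the results was not tested.

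Between genes, levels per transcript length spanned a wide range in GV oocytes. *BORCS5* stood at 677 ± 102 TPM (SD, n = 4), *SNAPIN* at 73.1 ± 13.8, *BLOC1S1* at 62.7 ± 27.0, *BLOC1S5* at 35.1 ± 10.6, *KXD1* at 27.5 ± 4.63, *BLOC1S2* at 26.1 ± 3.02, *DTNBP1* at 17.6 ± 5.10, *BLOC1S6* at 6.22 ± 2.85 and *BLOC1S4* at 0.866 ± 0.438. Neighbours in this order overlapped except *BORCS5* and *SNAPIN*, *DTNBP1* and *BLOC1S6*, and *BLOC1S6* and *BLOC1S4*. In MIX the order was *SNAPIN* at 74.5 ± 10.5 TPM (SD, n = 10), *BORCS5* at 50.1 ± 16.2, *BLOC1S5* at 18.3 ± 3.92, *DTNBP1* at 9.82 ± 1.64, *BLOC1S1* at 8.07 ± 1.66, *BLOC1S2* at 7.02 ± 1.11, *BLOC1S6* at 4.40 ± 0.841, *KXD1* at 0.445 ± 0.2496 and *BLOC1S4* at 0.195 ± 0.0643. Only *BORCS5* and *BLOC1S5*, and *BLOC1S6* and *KXD1*, did not overlap among neighbours there. *DTNBP1* thus lay 7th of 9 in GV and 4th of 9 in MIX. Since every library is scaled to the same TPM total, these are shares of its RNA. Fewer copies per oocyte and a smaller share of a changed RNA pool cannot be told apart, nor can less RNA per oocyte and fewer oocytes with the RNA among those pooled.

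**Figure D1:**
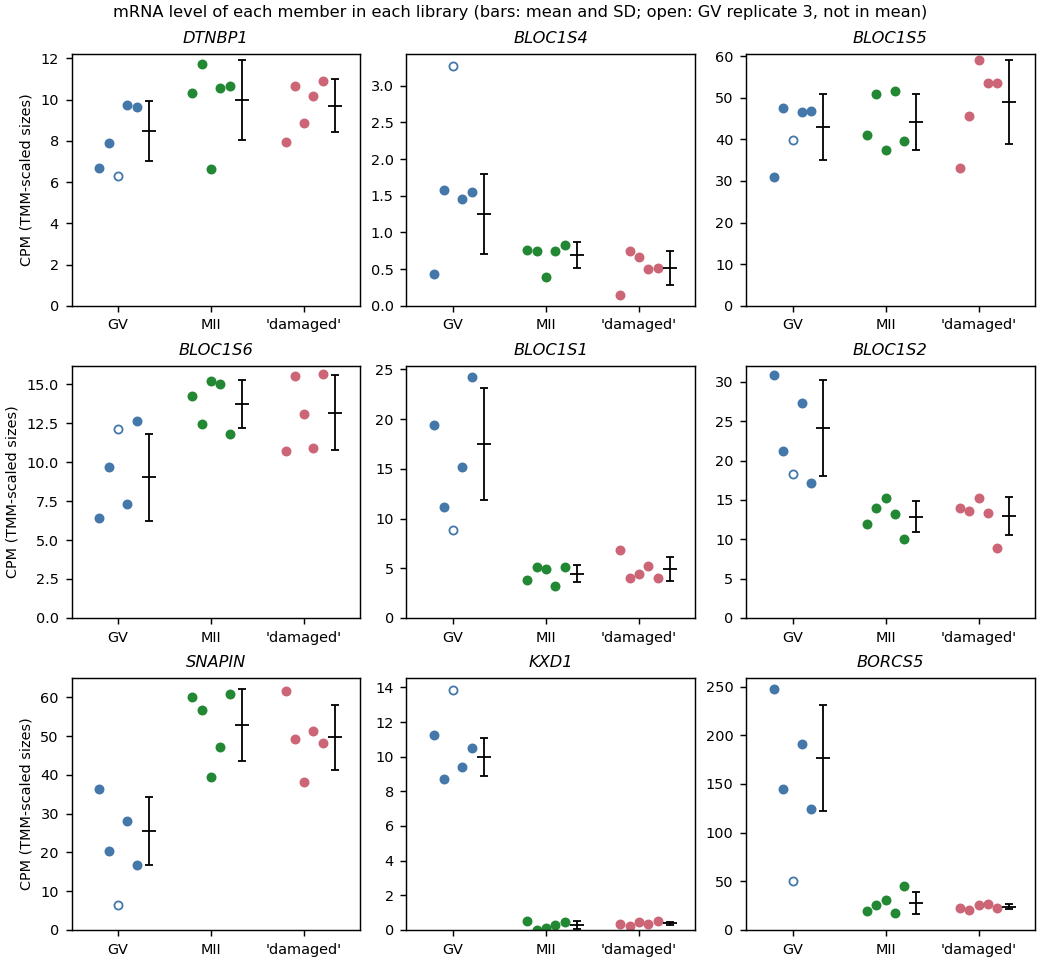
Level of each member in every library, in CPM on TMM-scaled library sizes (vertical axis, different for each gene), for GV, MII and ‘damaged’ oocytes. GV replicate 3 has its own symbol, and bars show the mean and SD. *KXD1* and *BORCS5* sit lower in all 10 MIX libraries than in GV, *SNAPIN* sits higher, and *DTNBP1* overlaps between the groups, although on library sizes without TMM factors *SNAPIN* overlaps too.

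Levels between groups are given as CPM, the count divided by the library size in M after multiplying that size by its TMM factor, which lines libraries up on genes of middling fold change. The factors were 1.35 to 1.73 in the 4 GV libraries and 0.794 to 0.922 in MIX, so the choice of scaling moves every fold change. On TMM-scaled sizes the 13228 genes tested had a median log2 fold change of -0.16 between MIX and GV, and on library sizes without the factors it was -1.06. All 9 members passed the filter on low counts. A gene passed the test (limma voom, Benjamini-Hochberg over all genes) with an FDR under 0.01 and was a DEG when its log2 fold change also exceeded 2 in size. *DTNBP1*, *KXD1* and *BORCS5* were chosen with their result in view, *DTNBP1* for its transcript usage and the other two from the study's list of DEGs, so they are described without a test. Of the other 6 members, 2 passed as lower in MIX (*BLOC1S1* and *BLOC1S2*), 2 passed as higher (*BLOC1S6* and *SNAPIN*) and 2 did not pass (*BLOC1S4* and *BLOC1S5*), where 67.5% of all genes passed, 37.2% as lower and 30.3% as higher. On library sizes without TMM factors the split was 4 lower (*BLOC1S1*, *BLOC1S2*, *BLOC1S4* and *BLOC1S5*) and 0 higher, against 60.5% lower and 12.1% higher among all genes. A total of 0 of the 6 was a DEG, where 21% of all genes were, 16.8% as lower and 4.28% as higher. The members on the study's list of DEGs had been set apart beforehand, so this count was largely fixed by the choice. No shortage of DEGs can be read from it. By complex, the log2 fold changes of MIX against GV ran from -0.95 to 0.60 for the 4 measured subunits of BLOC-1 alone. For the 3 shared subunits they ran from -1.88 to 1.06. *KXD1* and *BORCS5*, the 2 members of BORC alone, stood at -5.07 and -2.78, but both had been chosen as DEGs on this contrast. Their values thus do not describe BORC as a whole, and 2 other BORC genes tested stood at -0.19 (*BORCS7*) and -1.31 (*BORCS8*).

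**Figure D2:**
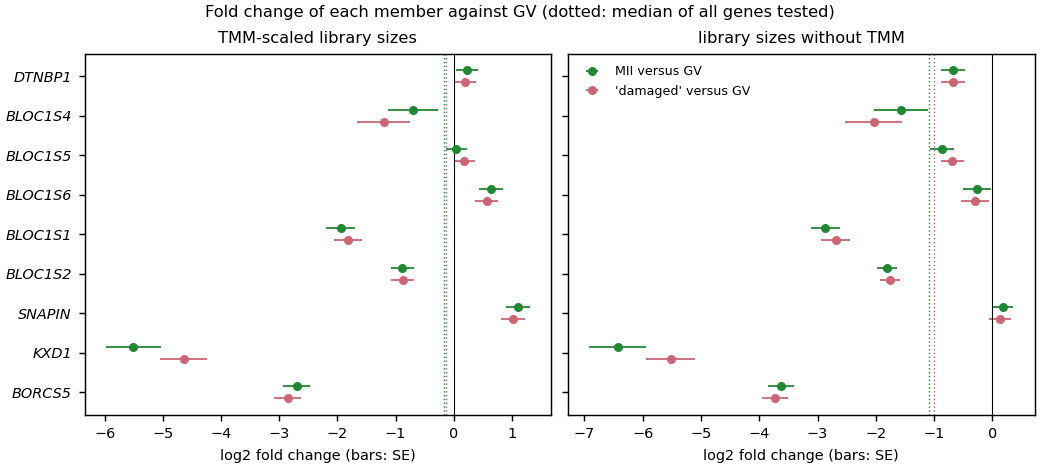
Log2 fold change of each member (points, with SE bars) for MII and for ‘damaged’ against the same 4 GV libraries, on TMM-scaled library sizes in the left panel and on library sizes without TMM in the right panel, with dotted lines at the median of all genes tested. *KXD1*, *BORCS5*, *BLOC1S1* and *BLOC1S2* lie below 0 in both panels, *SNAPIN* lies above the all-gene median in both, and *DTNBP1*, *BLOC1S5* and *BLOC1S6* lie above 0 on the left and below 0 on the right.

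*DTNBP1* (ENSSSCG00000001062, Sscrofa11.1 chr7:11602470-11720156 in RefSeq) encodes dysbindin, the BLOC-1 subunit named for its binding to dystrobrevins. As a whole gene its level was close between stages on TMM-scaled sizes. GV replicates 1, 2, 4 and 5 held 6.70, 7.89, 9.73 and 9.62 CPM, and GV replicate 3 held 6.28. The MII libraries held 10.3, 11.7, 6.65, 10.6 and 10.7 CPM, and the ‘damaged’ libraries 7.94, 10.7, 8.87, 10.2 and 10.9. MII replicate 3 was the low one of its group, and all 3 groups overlapped. The means were 8.48 ± 1.46 CPM in GV (SD, n = 4), 9.99 ± 1.94 in MII and 9.72 ± 1.27 in ‘damaged’ (n = 5 each). The log2 fold change was 0.21 (SE 0.16) for MIX against GV and turned to -0.68 on library sizes without TMM factors, which is 0.37 and 0.38 above the respective medians of all genes. With a filter of 10 CPM on low genes it turned to -0.11. The span of the gene overlaps that of *LOC110261784* in RefSeq, and the counting is not stated to use strand. Whether reads of the latter were counted for *DTNBP1* was not tested.

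Below the level of the gene, the transcripts of *DTNBP1* were used in different shares. Kallisto splits the reads of a gene among annotated transcripts by a model, so a transcript count is an estimate. Of the 4 transcripts with counts, ENSSSCT00000001157.5 (1399 bases) and ENSSSCT00000089435.2 (1315 bases) carried most of the gene in GV oocytes. The 1315-base transcript held 33.2, 44.0, 30.4 and 32.0% of the gene's TPM in GV replicates 1, 2, 4 and 5. It held 0% in each of the 5 MII libraries, and 2.79, 10.3, 8.83, 16.2 and 13.9% in the ‘damaged’ libraries. Over these 14 libraries the 3 groups did not overlap, with GV on top, ‘damaged’ between and MII at 0, but GV replicate 3, which had the fewest counts, held 0.000514% and lay next to MII. With it the GV mean was 27.9 ± 16.5% (SD, n = 5) in place of 34.9 ± 6.19% (n = 4). The shift in this gene chose it for study, so it is given without a test, and the contrast between ‘damaged’ and MII (10.4 ± 5.14% against 0%, n = 5 each) was seen in the same libraries. That contrast also rests on the labels. For replicates 1 and 2 of both groups the labels of the gene counts and of the transcript counts disagreed, and which are right was not tested. In replicates 3, 4 and 5, whose labels agreed, the transcript held 0% in MII and 8.83, 16.2 and 13.9% in ‘damaged’.

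**Figure D3:**
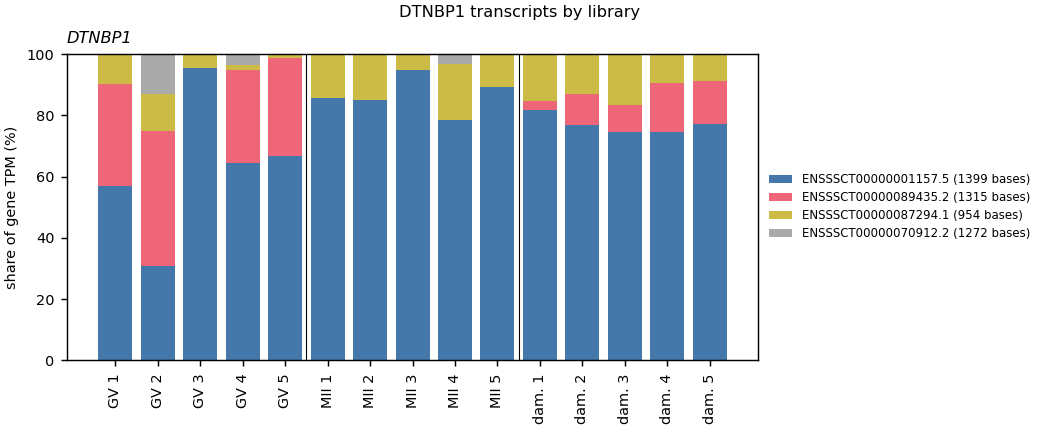
Share of the *DTNBP1* TPM (vertical axis, %) held by each of its 4 transcripts in every library (horizontal axis), in the order GV, MII and ‘damaged’. The 1315-base transcript takes 30.4 to 44.0% in GV replicates 1, 2, 4 and 5, 0.000514% in GV replicate 3, 0% in all MII libraries, and 2.79 to 16.2% in the ‘damaged’ libraries. Labels of gene counts and transcript counts disagreed for replicates 1 and 2 of MII and of ‘damaged’.

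Few reads lay behind these shares. In estimated counts the 1315-base transcript had 42.6, 65.3, 60.3 and 71.6 in GV replicates 1, 2, 4 and 5, which is 239.8 of 716.4 for the gene. It had 0 of 727 counts in the MII libraries and 2.89, 14.3, 12.8, 25.4 and 22.3 in the ‘damaged’ libraries, which is 77.7 of 717.6. A count of 0 allows a share of up to 1.52 to 3.33% in the single MII libraries, while the 95% Wilson intervals of the ‘damaged’ count shares ran from 0.986 to 8.14% in replicate 1 up to 10.7 to 21.9% in replicate 4. The interval of ‘damaged’ replicate 1 thus reached into the range allowed in MII. These intervals and limits cover counting error only, not the error of splitting reads among transcripts.

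The 1399-base transcript took the larger share in MIX. It held 57.0, 31.0, 64.5 and 66.6% in GV replicates 1, 2, 4 and 5 and 95.5% in GV replicate 3. In MII it held 85.7, 85.0, 94.8, 78.4 and 89.2%, and in ‘damaged’ 81.8, 76.7, 74.6, 74.5 and 77.3%. The 4 GV values lay below all MIX values, by a mean of 54.8 ± 16.4% against 81.8 ± 6.76% (SD, n = 4 and 10). As a level, the direction for this transcript depended on the scale. On TMM-scaled sizes it stood at 4.94 ± 2.01 CPM in GV and 8.55 ± 1.35 CPM in MIX, 1.73-fold higher without overlap (highest GV library 6.65, lowest MIX library 6.74), whereas in TPM it stood at 9.84 ± 4.91 in GV and 7.99 ± 1.25 in MIX and overlapped. The 1315-base transcript was lower in MIX on both scales, with 2.84 ± 0.489 CPM in GV and 0.522 ± 0.670 CPM in MIX, and with 6.08 ± 1.77 and 0.548 ± 0.719 TPM. ENSSSCT00000087294.1 (954 bases) held 6.15 ± 5.52% in GV, 12.7 ± 5.01% in MII and 12.6 ± 3.49% in ‘damaged’, with overlap. ENSSSCT00000070912.2 (1272 bases) had counts only in GV replicate 2 (18.6), GV replicate 4 (7.11) and MII replicate 4 (6.10).

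Among the other subunits of BLOC-1 alone, *BLOC1S6* passed the test as higher in MIX, and *BLOC1S4* and *BLOC1S5* did not pass. *BLOC1S6* (ENSSSCG00000037384, chr1:126168944-126184813), known as pallidin, the gene of the pallid mouse, held 6.42, 9.73, 7.30 and 12.6 CPM in GV replicates 1, 2, 4 and 5. It held 14.2, 12.4, 15.2, 15.0 and 11.8 CPM in MII and 10.7, 15.6, 13.1, 10.9 and 15.7 CPM in ‘damaged’. GV replicate 5 and GV replicate 3, at 12.2, overlapped with MIX, and the other 3 GV libraries lay below it. *BLOC1S6* had a log2 fold change of 0.60 (SE 0.17, limma FDR 0.00363, 1.52-fold) for MIX against GV, 0.64 (FDR 0.00804) for MII and 0.57 (FDR 0.0171, not passed) for ‘damaged’, the last 2 against the same GV libraries. It was -0.28 (FDR 0.213) for MIX on library sizes without TMM factors, and it lost the call with a filter of 10 CPM (0.28, FDR 0.1498), in the 8 libraries with 1 name in both kinds of file (0.51, FDR 0.0762), and without GV replicate 1 (0.48, FDR 0.0187) or GV replicate 4 (0.52, FDR 0.0210). The call for MII was lost under several settings too, among them the filter of 10 CPM (0.31, FDR 0.178).

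*BLOC1S5* (ENSSSCG00000040593, chr7:5324467-5363346), known as muted for a mouse coat colour, was close between stages on TMM-scaled sizes. GV replicates 1, 2, 4 and 5 held 31.0, 47.4, 46.6 and 46.9 CPM, and GV replicate 3 held 39.9. MII held 41.0, 51.0, 37.5, 51.6 and 39.5 CPM, and ‘damaged’ 33.04, 45.7, 59.1, 53.6 and 53.4. The groups overlapped, and GV replicate 1 and ‘damaged’ replicate 1 were the low libraries of their groups. The log2 fold change of MIX against GV was 0.12 (SE 0.15, limma FDR 0.505), with a 95% interval of -0.21 to 0.44, and on library sizes without TMM factors it was -0.77 (FDR 0.000484).

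*BLOC1S4* (ENSSSCG00000059110, chr8:4093619-4095790), known as cappuccino from another mouse coat colour, had the lowest level in TPM of the members. It rested on 8.54, 30.8, 30.4 and 37.4 counts in GV replicates 1, 2, 4 and 5 and on 2.003 to 13.997 counts in the MIX libraries. As CPM, GV held 0.436, 1.58, 1.45 and 1.55, with 3.28 in GV replicate 3, MII held 0.764, 0.751, 0.390, 0.742 and 0.829, and ‘damaged’ held 0.152, 0.751, 0.659, 0.508 and 0.517. GV replicate 1 alone fell within the range of MIX. Its log2 fold change was -0.95 (SE 0.37, limma FDR 0.0249), with a 95% interval of -1.72 to -0.18, and without GV replicate 1 it was -1.35 (FDR 0.000487). It also passed with edgeR's quasi-likelihood test (FDR 0.00871), with all 5 GV libraries (FDR 0.00970) and on library sizes without TMM factors (-1.80, FDR 0.000394).

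The 3 subunits that BLOC-1 and BORC share moved in opposite directions. *BLOC1S1* (ENSSSCG00000000359, chr5:21156460-21160738) was lower in MIX. It held 19.4, 11.11, 15.2 and 24.3 CPM in GV replicates 1, 2, 4 and 5, and 8.86 in GV replicate 3. It held 3.84, 5.11, 4.95, 3.197 and 5.16 CPM in MII and 6.84, 3.98, 4.44, 5.19 and 3.97 in ‘damaged’. Every GV library lay above every MIX library. The log2 fold change of MIX against GV was -1.88 (SE 0.20, limma FDR 2.2e-08), a ratio of 0.272, and against the same GV libraries it was -1.95 (FDR 5.8e-07) for MII and -1.81 (FDR 1.2e-06) for ‘damaged’. *BLOC1S1* thus lay just under the log2 limit of 2 for a DEG and passed that limit without GV replicate 2, the lowest of the 4 GV libraries (-2.07).

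*BLOC1S2* (ENSSSCG00000010551, chr14:111391083-111397609), another shared subunit, was also lower. Its GV libraries 1, 2, 4 and 5 held 30.9, 21.3, 27.3 and 17.1 CPM, and GV replicate 3 held 18.2. MII held 11.96, 13.97, 15.2, 13.1 and 9.99 CPM, and ‘damaged’ 13.99, 13.6, 15.2, 13.3 and 8.87. The groups did not overlap, though GV replicate 5 came near the highest MIX libraries. MIX against GV gave a log2 fold change of -0.88 (SE 0.16, limma FDR 6.1e-05), a ratio of 0.544, and it was -0.88 (FDR 0.000524) for MII and -0.87 (FDR 0.000577) for ‘damaged’ against the same GV libraries. In the 8 libraries whose names agreed between both kinds of file it was -0.76 and did not pass (FDR 0.0124).

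*SNAPIN* (ENSSSCG00000034159, chr4:95987524-95989527) encodes a subunit first known as a partner of the synaptic protein SNAP25. It was higher in MIX on TMM-scaled sizes and did not pass on library sizes without the factors (log2 fold change 0.15, FDR 0.372). GV replicates 1, 2, 4 and 5 held 36.4, 20.4, 28.2 and 16.8 CPM, and GV replicate 3 held 6.48. MII held 60.1, 56.8, 39.6, 47.1 and 60.9 CPM, and ‘damaged’ 61.7, 49.3, 38.2, 51.2 and 48.2. The ranges of GV and MIX did not overlap, GV replicate 1 being the nearest to MIX. The log2 fold change of MIX against GV was 1.06 (SE 0.18, limma FDR 1.7e-05, 2.08-fold), and it was 1.10 (FDR 8.1e-05) for MII and 1.01 (FDR 0.000202) for ‘damaged’. Above the median of all genes it was 1.22 with TMM factors and 1.21 without. *SNAPIN* overlaps *ILF2*, which encodes a subunit of a double-stranded RNA binding complex, on the genome, and the counting is not stated to use strand. Whether reads of *ILF2* were counted for *SNAPIN* was not tested. *ILF2* fell from 99.996 to 127.6 CPM in GV to 36.2 to 48.0 CPM in MIX (log2 fold change -1.40, SE 0.10, limma FDR 1.4e-10).

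The subunits of BORC alone had the lowest values in MIX relative to GV among the members, and both were chosen because the study lists them as DEGs. *KXD1* (ENSSSCG00000013906, chr2:59242301-59250893), a coiled-coil subunit, held 11.3, 8.74, 9.43 and 10.5 CPM in GV replicates 1, 2, 4 and 5, and 13.8 in GV replicate 3. It held 0.529, 0, 0.0957, 0.296 and 0.462 CPM in MII and 0.354, 0.212, 0.452, 0.358 and 0.499 in ‘damaged’. MIX was near 0 throughout, and no MIX library had more than 7.45 expected counts where each GV library had 145 or more. *KXD1* thus had a log2 fold change of -5.07 (SE 0.35) for MIX against GV, and against the same GV libraries it was -5.51 for MII and -4.64 for ‘damaged’. These values lean on the prior count that voom adds, and in MII replicate 2 a count of 0 allows up to 0.228 CPM.

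*BORCS5* (ENSSSCG00000032804, chr5:59969806-60072976), the subunit that anchors BORC to the lysosome membrane by its myristoyl group, is listed in RefSeq as a long non-coding RNA gene at this position in the pig. It held 247, 144, 191 and 124 CPM in GV replicates 1, 2, 4 and 5, and 50.6 in GV replicate 3. MII held 19.8, 26.1, 31.0, 16.9 and 45.5 CPM, and ‘damaged’ 22.8, 20.2, 25.6, 26.6 and 22.9. MII replicate 5 was the high library of MIX and lay close below GV replicate 3. The means were 177 ± 54.6 CPM in GV (SD, n = 4) and 25.7 ± 8.01 in MIX (n = 10), and the log2 fold change was -2.78 (SE 0.20), with -2.70 for MII and -2.85 for ‘damaged’ against the same GV libraries. From estimated counts that are not corrected for transcript length it was -2.22.

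Over the 9 members, the CPM of GV (n = 4) and MIX (n = 10) did not overlap for 5, of which *BLOC1S1*, *BLOC1S2*, *KXD1* and *BORCS5* were lower and *SNAPIN* higher, while 53.6% of all genes did not overlap, 29.3% as lower and 24.3% as higher. A share of 5 in 9 is near that background, and *KXD1* and *BORCS5* had been chosen on the same contrast. On library sizes without TMM factors *SNAPIN* overlapped as well (29.1 to 49.2 CPM in GV and 32.1 to 51.1 in MIX). Against GV, MII and ‘damaged’ gave the same split of the 6 tested members except for *BLOC1S6*, with 2 lower, 2 higher and 2 not passed in MII (62.4% of all genes passed, 34.2% as lower and 28.2% as higher) and 2 lower, 1 higher and 3 not passed in ‘damaged’ (61.4%, 33.4% as lower and 28% as higher). Whether *BLOC1S6* differed between MII and ‘damaged’ was tested directly, as given next.

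‘Damaged’ oocytes were set against MII oocytes to ask whether oocytes without a polar body differ from those with one. Of the 6 tested members 0 passed (limma, FDR 1.00 for each), as did 0% of all genes, and 194 of 13228 genes had an unadjusted p under 0.05. With edgeR 0 genes passed and 263 had such a p, and with DESeq2 the counts were 0 and 251. The log2 fold changes of ‘damaged’ against MII and their 95% intervals were 0.13 (-0.42 to 0.68) for *BLOC1S1*, 0.01 (-0.41 to 0.43) for *BLOC1S2*, -0.50 (-1.53 to 0.52) for *BLOC1S4*, 0.14 (-0.22 to 0.50) for *BLOC1S5*, -0.07 (-0.47 to 0.32) for *BLOC1S6* and -0.09 (-0.48 to 0.31) for *SNAPIN*. Log2 values of 1 and -1 lay outside these intervals for 5 of the 6, and -1 lay inside that of *BLOC1S4*. *DTNBP1*, *KXD1* and *BORCS5* stood at -0.03 (SE 0.18), 0.87 (SE 0.58) and -0.15 (SE 0.25). All 9 members overlapped between the groups, as did all but 0.272% of genes.

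The members other than *DTNBP1* differed in how many transcripts they showed. *BLOC1S1*, *BLOC1S2*, *BLOC1S4* and *SNAPIN* each had 1 transcript with counts, so their transcript usage could not change. *BORCS5* had a short transcript (ENSSSCT00000063050.2, 441 bases) and a long one (ENSSSCT00000039731.3, 956 bases). The short transcript held 54.4, 64.1, 55.0 and 60.1% of the gene's TPM in GV replicates 1, 2, 4 and 5 and 64.1% in GV replicate 3. It held 19.5, 37.2, 26.6, 1.43 and 36.7% in MII and 19.9, 16.6, 16.4, 10.6 and 11.98% in ‘damaged’. The GV libraries lay above all MIX libraries, and MII spread more widely than ‘damaged’. As levels, the short transcript stood at 392 ± 33.5 TPM in GV and 10.9 ± 9.05 in MIX, and the long one at 285 ± 72.0 and 39.2 ± 9.33, so both were lower in MIX and the short one more so, as also on TMM-scaled sizes (41.6 ± 10.6 against 2.36 ± 1.98 CPM, and 96.3 ± 39.4 against 26.3 ± 5.48). *BORCS5* is given without a test, as above.

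**Figure D4:**
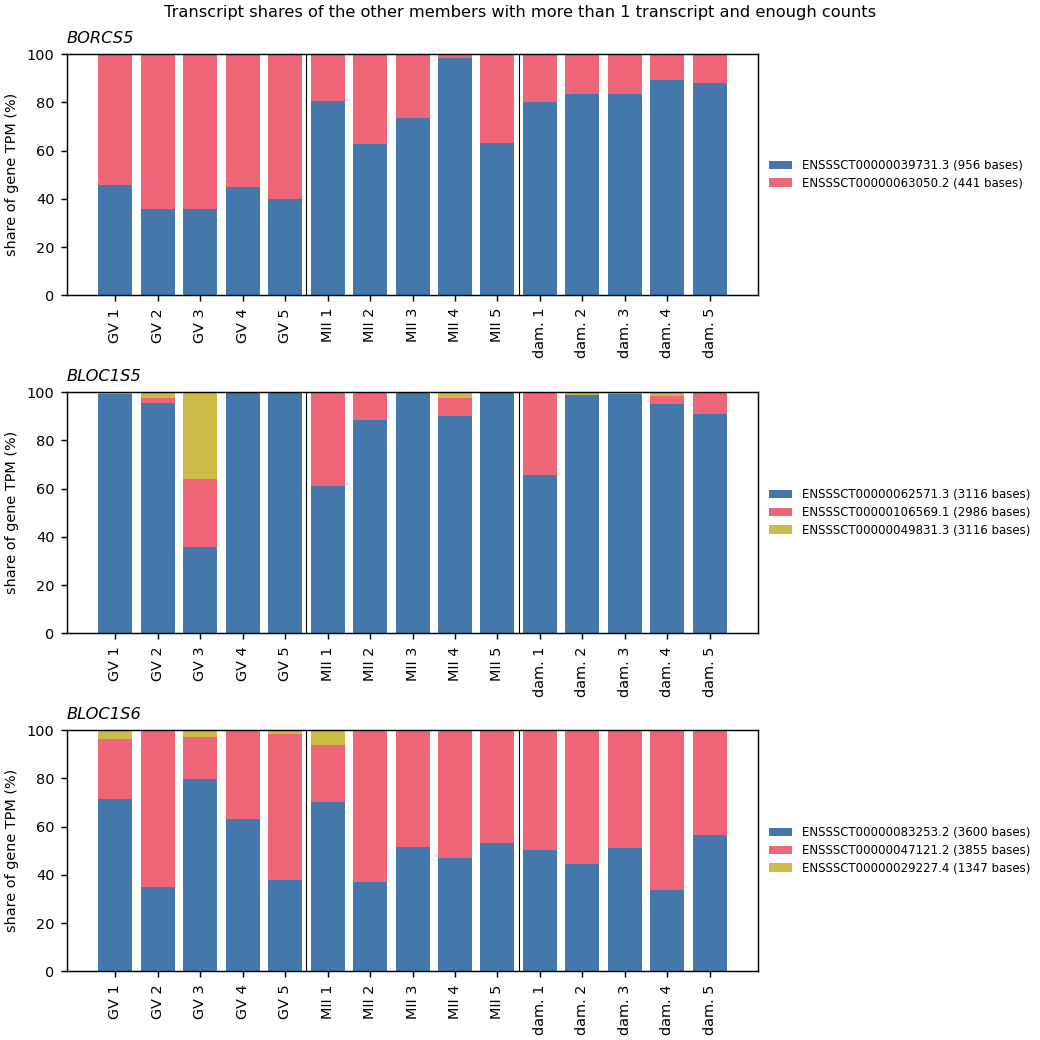
Share of gene TPM (vertical axis, %) held by each transcript of *BORCS5*, *BLOC1S5* and *BLOC1S6* in every library (horizontal axis), in the order GV, MII and ‘damaged’. The short *BORCS5* transcript holds 54.4 to 64.1% in GV and 1.43 to 37.2% in MIX, and GV replicate 3 stands apart for *BLOC1S5*, with 35.9% on its leading transcript.

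*BLOC1S5* had ENSSSCT00000062571.3 (3116 bases) as its leading transcript, with 98.7 ± 2.13% in GV (SD, n = 4) and 88.9 ± 14.1% in MIX (n = 10). GV replicate 3 stood far off at 35.9%, with another 35.9% on ENSSSCT00000049831.3 (3116 bases) and 28.3% on ENSSSCT00000106569.1 (2986 bases). MII replicate 1 and ‘damaged’ replicate 1 gave 38.7 and 33.9% to the 2986-base transcript, while the other MIX libraries gave it 0 to 11.13%. *BLOC1S6* split its reads between ENSSSCT00000083253.2 (3600 bases), with 51.9 ± 18.1% in GV and 49.6 ± 10.1% in MIX, and ENSSSCT00000047121.2 (3855 bases), with 46.8 ± 19.2 and 49.8 ± 11.6%. In the test of transcript usage (the DEXSeq model fitted in DESeq2, with filters of a gene TPM over 1, an isoform fraction over 5% and a change of 10 points in the gene), where 43.1% of isoforms were called between MIX and GV, no isoform of *BLOC1S5* or *BLOC1S6* passed the filter on the change. Without that filter the model gave an FDR of 0.116 for the leading transcript of *BLOC1S5* and 0.843 for that of *BLOC1S6*. Exact permutation of the libraries, two-sided, gave p = 0.126 and p = 0.759 for the same shares, where the smallest p possible was 0.000999, and 0 isoforms of these genes were called under any alternative. Between ‘damaged’ and MII 0.0772% of isoforms were called. No isoform of *BLOC1S5* or *BLOC1S6* passed the filter on the change there either, so none could be called in that test. Exact permutation of the libraries gave p = 0.714 and p = 0.508 for the same 2 leading transcripts, where the smallest p possible was 0.00794. *KXD1* gave GV replicate 3 84.0% on ENSSSCT00000081805.2 (869 bases), against 0 to 27.9% in the other GV libraries, and its MIX shares rested on 0 to 8 counts.

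The wider pathway was read from a list of 34 genes that act with BLOC-1 and BORC, of which 31 had a row and 28 were tested. Between MIX and GV, 8 passed as lower, 12 as higher and 8 did not pass (limma, FDR over all genes), a share of 20 in 28 where 67.5% of all genes passed. Their median log2 fold change was -0.17, against -0.16 over all genes. On library sizes without TMM factors 16 were lower and 7 higher, where 60.5% of all genes were lower and 12.1% higher. Against the same GV libraries the counts were 7 lower and 12 higher for MII and 8 and 12 for ‘damaged’, and between ‘damaged’ and MII 0 of 28 passed, as did 0% of all genes. A total of 4 genes were DEGs as lower (*LAMTOR2*, *AP3S2*, *RAB38* and *HPS1*) and 1 as higher (*HPS4*), where 16.8% of all genes were DEGs as lower and 4.28% as higher, so 5 in 28 is near the 21% of all genes.

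Of the 2 other BORC genes tested, *BORCS8* passed as lower with a log2 fold change of -1.31 in MIX (limma FDR 0.00246), with -1.63 (FDR 0.00287) for ‘damaged’ and -0.99 (FDR 0.0360, not passed) for MII, and *BORCS7* stood at -0.19 and did not pass. Of the genes that link BORC to movement, the kinesin genes *KIF5B* and *KIF1B* rose by 1.58 and 1.06 on the log2 scale, and *PLEKHM2*, an adaptor for kinesin on lysosomes, fell by 1.40. Ragulator, a lysosomal scaffold that binds BORC, was split, with *LAMTOR3* and *LAMTOR5* higher (1.83 and 1.45) and *LAMTOR1* and *LAMTOR2* lower (-1.26 and -4.02). *LAMTOR2* held 36.0 to 65.4 CPM in GV, 2.07 to 5.27 in MII and 2.04 to 3.65 in ‘damaged’ (limma FDR 2.6e-13 for MIX against GV).

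AP-3, the adaptor that acts with BLOC-1 in endosomal sorting, had 1 subunit lower, 3 higher and 2 not passed of 6. *AP3S2*, its small subunit, held 8.31 to 12.5 CPM in GV, 0.710 to 2.38 in MII and 0.694 to 1.96 in ‘damaged’ (log2 fold change -2.95, limma FDR 3.0e-10), while *AP3B1*, *AP3M1* and *AP3B2* rose by 1.36, 1.68 and 0.88. The subunits of BLOC-3, an exchange factor for RAB32 and RAB38, went apart. *HPS1* held 1.60 to 2.04 CPM in GV, 0.249 to 0.608 in MII and 0.0608 to 0.371 in ‘damaged’ (-2.53, SE 0.31, FDR 3.1e-07 by limma). *HPS4* held 1.07 to 3.22, 11.06 to 14.9 and 9.01 to 16.4 CPM (2.72, SE 0.24, FDR 2.3e-09 by limma). GV and MIX did not overlap for these 2 genes. In BLOC-2, *HPS3* was higher (0.67) and 1 gene did not pass. Among partners and cargo, *RAB38* (-2.72, limma FDR 9.7e-05, with 0.575 to 1.51 CPM in GV and 0 to 0.610 in MIX) and *RAB32* (-1.76) were lower, the SNAREs *VAMP7* (1.27) and *STX12* (0.57) were higher, and 3 of 7 did not pass. In MIX 3 counts are 0.159 to 0.284 CPM, and the lowest MIX values of *RAB38* and *HPS1* lay below this. All these fold changes, and those of the BORC and Ragulator genes, are on TMM-scaled sizes. Without the factors 7 of the 28 genes passed as higher in place of 12, so the direction of the smaller rises may depend on the scaling.

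**Figure D5:**
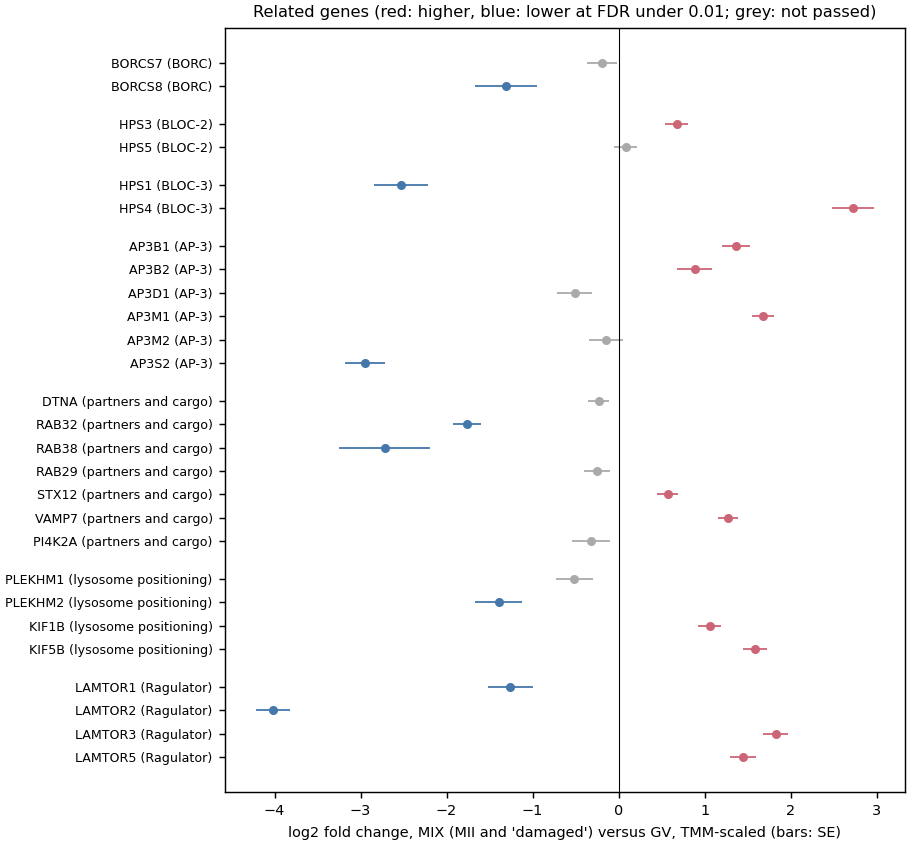
Log2 fold change of MIX against GV for the tested genes of the wider list, all but 1 of which are drawn (points, with SE bars), grouped by complex, on TMM-scaled library sizes. Genes of a single complex lie on both sides of 0, with *HPS1* at -2.53 beside *HPS4* at 2.72, and *LAMTOR2* at -4.02 beside *LAMTOR3* at 1.83, and on library sizes without TMM factors 16 genes pass as lower and 7 as higher.

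The genes whose level across libraries was most like that of *DTNBP1* were sought by Pearson's r of log2 CPM over 14 libraries, among 11020 genes with a symbol. They were *MMP9* (r = 0.88), *ELAVL1* (0.85), *COPRS* (0.83), *MRPS26* (0.83) and *UBFD1* (0.82). *MMP9* rested on few counts, with 0.255 to 0.671 CPM in GV and 0.301 to 1.06 in MIX, where 3 counts are 0.124 to 0.284 CPM. All 5 shared with *DTNBP1* a low value in MII replicate 3, and the libraries also share depth, scaling and stage, so these values describe this set of libraries. Among the members r was 0.62 for *BLOC1S5*, 0.43 for *BLOC1S6*, 0.33 for *BLOC1S4* and for *SNAPIN*, -0.36 for *KXD1*, -0.43 for *BLOC1S1*, -0.44 for *BORCS5* and -0.58 for *BLOC1S2*. Of the 8, *BLOC1S5* came nearest, at rank 156.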

How the data were processed

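RNAseq of pig oocytes (GV, MII and ‘damaged’, 5 libraries each of 15 oocytes, single-end reads) had been quantified by the authors with AfterQC trimming and Kallisto 0.43 against the Ensembl cDNA of Sscrofa11.1. The version is from the submitters' processing notes. The deposited transcript files hold estimated counts, not normalized, and TPM, scaled by the authors with Kallisto to 1 total in each library. The deposited gene table holds expected counts that the authors made with tximport (lengthScaledTPM).

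Groups were taken from the labels of the transcript files. In the gene table, 8 of 15 columns had totals that matched their own library's transcript file. For 7 the sum was that of a differently labelled library, and these were left unused. Transcripts were placed in genes by matching TPM sums to those 8 columns (17782 genes, at least 99.98% of each library's counts), and expected counts of all libraries were computed from the transcript files. Tested on simulated data, 98.2% of genes got exactly their transcripts. Which labels of MII and ‘damaged’ are right was not tested.

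Expected counts, rounded for DESeq2 but not otherwise, went into voom, lmFit and eBayes of limma 3.58.1 with TMM factors and filterByExpr of edgeR 4.0.16 in R 4.3.3. The fits covered 13228 genes, with a threshold of FDR 0.01 and, for DEGs, a log2 fold change over 2. The usage test and the intervals used estimated counts of transcripts, rounded. MIX against GV was fitted with 2 groups (4 and 10 libraries), and the other contrasts in 1 fit of 3 groups (14 libraries). Transcript usage was tested with the DEXSeq model by likelihood ratio in DESeq2 1.42.0. For *BLOC1S5* and *BLOC1S6* exact permutation tests of the share were also run. Intervals are 95% Wilson intervals for shares of counts, and a count of 0 is given with the limit of 3 counts. Python 3.11.15 with pandas 2.3.3, numpy 2.4.6, scipy 1.17.1 and matplotlib 3.10.9 did the rest. For the gene fits, simulated libraries had 100 genes changed by each size and the same spread for every gene. There the fit of MIX against GV recovered 28% of genes changed by 1 on the log2 scale. It recovered 100% of those changed by 2.5 (12933 genes, 3 false calls). That of ‘damaged’ against MII recovered 28 and 100% (12953 genes, 1 false call). The usage test recovered 98.5 and 98% of 200 changed genes, with 10 and 3 genes called falsely.

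Members and lists were chosen with earlier results of these data known. The genes named are the 10 members, the DEGs of the wider list (at most 4 in each direction) and the 5 genes most like *DTNBP1*. Other genes of that list that passed are named with their complex. Positions are from RefSeq by symbol. Alternatives were library sizes without TMM factors, edgeR, DESeq2, a filter of 10 CPM, uncorrected estimated counts, all 5 GV libraries, a replicate block, each replicate left out and, chosen after seeing the data, the 8 libraries with 1 name in both files. *BLOC1S3* and the study's human libraries were not analysed here, and 1 gene of the wider list is counted but not reported here.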

Additional observations from a re-analysis of the deposited data

Results flagged for a closer look

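Values were checked for a library that stood far from the others of its group in 62 groups of values, and 12 were found. Chance alone picks about 1 in 20 such groups. Of the 12, 7 concern transcript shares of *BLOC1S5*. In GV replicate 3, the library with the fewest counts, ENSSSCT00000062571.3 held 35.9% of *BLOC1S5*, far below the next GV library at 95.5%, while ENSSSCT00000049831.3 held 35.9% (next 2.45%) and ENSSSCT00000106569.1 held 28.3% (next 2.04%). The latter transcript also stood high in MII replicate 1 (38.7%, next 11.13%) and in ‘damaged’ replicate 1 (33.9%, next 9.02%), where ENSSSCT00000062571.3 stood low at 65.9% (next 91.0%). In MII replicate 4, ENSSSCT00000049831.3 held 2.498% (next 0.547%).

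MII replicate 3 was low for *DTNBP1* (6.65 CPM, next 10.3) and for *BLOC1S4* (0.390 CPM, next 0.742). The *DTNBP1* transcript ENSSSCT00000070912.2 held 13.0% in GV replicate 2 (next 3.72%) and 3.21% in MII replicate 4, where the other MII libraries were at 0. The *BLOC1S6* transcript ENSSSCT00000029227.4 held 6.29% in MII replicate 1, where the other MII libraries were at 0.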

How the results depend on the processing

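The scaling mattered most. On library sizes without TMM factors the log2 fold change of *BLOC1S5* turned to -0.77 (MIX), -0.86 (MII) and -0.68 (‘damaged’) against GV, and that of *BLOC1S6* to -0.28 (MIX) and -0.26 (MII). The number of DEGs among the 6 tested members then rose from 0 to 1 for MIX and MII and to 2 for ‘damaged’. Among all 13228 genes 3788 were then DEGs as lower and 46 as higher for MIX. These counts were 3886 and 47 for MII and 3671 and 44 for ‘damaged’. With the filter of 10 CPM 1 of the 6 was a DEG in each of these 3 comparisons (1177 lower and 181 higher of 7465 genes for MIX). The same held in the 8 libraries with 1 name in both files (2437 and 732 of 13845 genes for MIX). There 2 members passed for MII in place of 4, and 3757 of all genes passed as lower and 3031 as higher. With each replicate left out in turn, 3 to 4 members passed in each comparison with GV and 0 between ‘damaged’ and MII, and 0 to 1 was a DEG, the 1 being *BLOC1S1* (without GV replicate 2, and for MII also without MII replicate 2 or 5). For MIX 4677 to 5043 of the 13190 to 13534 genes tested in these fits passed as lower and 3717 to 4073 as higher. DEGs among them numbered 2189 to 2379 as lower and 470 to 736 as higher. As shares of estimated counts in place of TPM, ENSSSCT00000087294.1 held 8.40% of *DTNBP1* in ‘damaged’ and 8.44% in MIX, and ENSSSCT00000001157.5 held 81.4% in ‘damaged’. With all 5 GV libraries ENSSSCT00000089435.2 held 27.9% in GV.

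Of the fold changes of the members, 487 values with a replicate left out counted as the same and 13 did not. For tested members this meant the same call, and a change of sign counted only where a fit passed. With a replicate left out *BLOC1S5* ran from -0.01 to 0.17 for MIX against GV and counted as the same. For members without a test it meant a move smaller than the spread between replicates. Under other settings 286 counted as the same, 9 more passed, 13 no longer passed and 5 reversed, and 16 values without a test moved by more than that spread. *BLOC1S6* was the member whose call changed most often. For MII against GV it was lost with the filter of 10 CPM (FDR 0.178), in the 8 libraries with 1 name (FDR 0.106), under edgeR (FDR 0.0131), with all 5 GV libraries (FDR 0.0170) and without GV replicates 1, 2 or 4 or any of MII replicates 1 to 4. For ‘damaged’ the call was gained under DESeq2 (FDR 0.00805), from uncorrected estimated counts (limma FDR 0.00986) and without GV replicate 5 (limma FDR 0.00229). The cause was not tested. Each collection gave every group, but the sources do not tie replicate numbers to collections, and 5 of 13 same-numbered pairs, not all, had deviations that correlated over 0.1. Same-numbered pairs had a median r of 0.072 and other pairs of -0.017, and 8 of 14 libraries were closest to their own number, which is a hint of pairing from the data and not from the design. With the replicate block 4 members passed for MIX, 3 for MII, where *BLOC1S6* was lost (FDR 0.0154), 3 for ‘damaged’ and 0 between ‘damaged’ and MII. Of all 13228 genes 4857 then passed as lower and 4055 as higher for MIX. These counts were 4569 and 3783 for MII, 4436 and 3796 for ‘damaged’, and 0 and 0 between ‘damaged’ and MII. At this depth *BLOC1S4*, *KXD1* in MIX, *RAB38* and *HPS1* in MIX, and the minor transcripts of *DTNBP1* rested on few counts. The 28% recovery of changes of 1 on the log2 scale holds for simulated libraries with few changed genes. Between MIX and GV 67.5% of all genes passed, and *BLOC1S2* at -0.88 and *SNAPIN* at 1.06 were among them. How often a change of 1 would be missed in these libraries was not tested.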
